A study of Mus musculus with 16 samples.

Results

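Liver RNA of mice exposed to 1 mg/L diphenyl phosphate (DPhP), here C2, was set against liver RNA of untreated mice, here CTRL. The members were taken by their labelled concentration, 4 libraries for each, so that 8 of the 16 libraries of the series were compared. The remaining 8 came from mice given 0.1 mg/L (C1) or 10 mg/L DPhP (C3), and they were used to estimate the spread and to show where C2 differed from both. Every group was of the inbred strain FVB/NCrl, and the labels name no altered gene, diet or second agent. The route and length of exposure, the age and sex of the mice and the number of animals per group are stated in no source used here. Of genes of the Y chromosome, Kdm5d, Ddx3y and Eif2s3y had 0 counts in CTRL and C2, and Uty had 0 and 3. RNA of males was thus near absent from both pools. Each group's livers had been combined before its RNA was measured, and its 4 libraries are analytical replicates of that 1 pool. The p-values below therefore measure the spread between libraries and not between animals, and concentration and pool cannot be told apart.

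DPhP is a diester that forms when aryl phosphate flame retardants such as triphenyl phosphate lose a phenyl group. Hepatocytes hold most of the RNA of the liver and adjust it to feeding state, circulating glucocorticoids, metal load and inflammatory cytokines. Metallothioneins bind zinc and copper and are induced by metals and by glucocorticoids, while serum amyloid A and lipocalin 2 are acute phase products that rise after interleukin-6 or interleukin-1. In fasting, glucagon and glucocorticoids raise Igfbp1 and Pck1, and insulin represses them after a meal. Sinusoidal endothelial cells line the liver capillaries and clear waste molecules from the blood.

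The libraries held 24598433 to 33503129 counts in CTRL and 45109243, 40652089, 15611309 and 16311207 in C2-1 to C2-4. C2-3 and C2-4 stood apart from the other 6 in several measures. The mean log2 CPM (counts per 1000000, scaled with TMM factors for library composition) of Malat1, Neat1, Xist and Kcnq1ot1, noncoding RNAs that stay in the nucleus, was 10.15 and 10.07 in that pair, against 9.03 and 8.88 in C2-1 and C2-2 and 8.44 to 9.01 in CTRL (C3-4, which enters the comparisons with C3, had 9.97). Protein-coding genes took 75.5% and 59.4% of their counts, against 82.4% to 87.7% in the other 6, and a ribosomal RNA locus took 11.2% and 28.4%, against 1.05% to 5.76%. In C1-1, C1-3 and C1-4, which enter the shared spread and the comparisons with C1, that locus took 10.2%, 11.2% and 7.89%. Protein-coding genes took 78.2%, 77.3% and 80.1% there. Because C2-3 and C2-4 stood apart, counts over gene lists are also given for C2-1 and C2-2 alone, the first pair, except for a few small marker lists. Alb, the albumin gene of hepatocytes, was read at 43734, 50905, 53697 and 43482 CPM in CTRL-1 to CTRL-4 and 46799, 50572, 17620.0 and 22694 CPM in C2-1 to C2-4, abundant in every library and lower in the last pair. Summed over 12 hepatocyte markers the level was 86357 to 103430.0 CPM in CTRL and 40413 to 94126 CPM in C2. In such bulk samples fewer cells of a type and less RNA per cell cannot be told apart.

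Of 17810 genes tested, edgeR called 3254 changed in C2 (18.3%, Benjamini-Hochberg adjusted p under 0.05), 1430 higher (8.03%) and 1824 lower (10.2%). At least 2-fold changed 903 (5.07%). With C2-1 and C2-2 alone it called 3707 of 18683 genes (19.8%), 1682 higher and 2025 lower, with 758 at least 2-fold (4.06%). The sets shared 1834 genes called in the same direction, 56.4% of the first and 49.9% of the second, and 0 genes were called in opposite directions. Of the 1824 lower genes 1223 (67.1%) were called again in that pair, and of the 1430 higher genes 611 (42.7%) were; these are 6.87% and 3.43% of all genes tested. Among the lower genes 1776 (97.4%) had C2-1 and C2-2 both below every CTRL library. Among the higher genes 1066 (74.5%) had both above. Both fits hold C2-1, C2-2 and the CTRL libraries, so the shared calls and directions are no independent test. The 4 C2 libraries did not overlap the 4 CTRL libraries for 3687 genes (20.7%). Leaving out CTRL-4 lowered the number called to 1972, CTRL-2 to 2046 and CTRL-3 to 2092, and with upper-quartile in place of TMM scaling 58.5% of calls were higher where 43.9% were. Genes named below as "called in both" passed with all 4 C2 libraries and with the first pair alone.

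Metallothionein transcripts were lower in C2 than in any other pool. Mt2 (ENSMUSG00000031762.7, chromosome 8, 94172664 to 94173568, GRCm38) stood at 52.8, 42.4, 50.7 and 44.6 CPM in CTRL-1 to CTRL-4 and at 10.1, 11.6, 10.1 and 10.3 CPM in C2-1 to C2-4. The C2 libraries were close to each other and all lay below CTRL, C2-3 and C2-4 included. Mt2 fell to 10.5 ± 0.721 from 47.6 ± 4.88 CPM (mean ± SD, n = 4; log2 fold change -2.17 ± 0.13 SE, edgeR adjusted p = 3.84e-08), and with C2-1 and C2-2 alone the log2 fold change was -2.10 (edgeR adjusted p = 1.02e-07). Mt1 (ENSMUSG00000031765.8, chromosome 8, 94179082 to 94180327) was read at 161, 141, 149 and 155 CPM in CTRL and 58.6, 64.5, 59.7 and 62.2 CPM in C2 (log2 fold change -1.31 ± 0.12 SE, edgeR adjusted p = 2.71e-06). Against the neighbouring concentrations Mt2 was lower than in C1 (log2 difference -2.61) and C3 (-2.57; edgeR adjusted p = 2.46e-09 and 2.98e-09), and the values for Mt1 were -1.49 and -1.76 (edgeR adjusted p = 6.23e-07 and 8.23e-08). Slc39a4, the zinc importer ZIP4, also fell, from 15.1, 18.6, 18.4 and 18.7 CPM in CTRL to 9.77, 8.89, 9.61 and 8.52 CPM in C2, with no overlap (log2 fold change -0.94 ± 0.16 SE, edgeR adjusted p = 0.000781). Of 11 measured genes of metal handling 4 fell and 0 rose with all libraries, and 5 fell and 0 rose with the first pair (10.2% and 10.8% of all genes fell), with a median log2 fold change of -0.29 against 0.03 over all genes. Mtf1, which encodes the metal-responsive transcription factor, had a log2 fold change of -0.07 (edgeR adjusted p = 0.715), and Slc30a1, the zinc exporter that this factor also drives, one of -0.13 (edgeR adjusted p = 0.435).

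Since the metallothionein genes moved together, their promoter windows are shown, from 250 bases before to 50 after the annotated start (RefSeq, GRCm38.p6), with the metal response element core TGCACNC or TGCGCNC in capitals on either strand.
Mt1, chr8:94178839-94179138 (plus strand): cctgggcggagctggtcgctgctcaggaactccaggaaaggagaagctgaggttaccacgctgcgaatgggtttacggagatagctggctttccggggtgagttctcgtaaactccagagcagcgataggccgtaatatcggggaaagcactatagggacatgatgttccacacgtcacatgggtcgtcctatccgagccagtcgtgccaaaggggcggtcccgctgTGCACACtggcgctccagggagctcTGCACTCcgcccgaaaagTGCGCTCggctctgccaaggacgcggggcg
Mt2, chr8:94172368-94172667 (plus strand): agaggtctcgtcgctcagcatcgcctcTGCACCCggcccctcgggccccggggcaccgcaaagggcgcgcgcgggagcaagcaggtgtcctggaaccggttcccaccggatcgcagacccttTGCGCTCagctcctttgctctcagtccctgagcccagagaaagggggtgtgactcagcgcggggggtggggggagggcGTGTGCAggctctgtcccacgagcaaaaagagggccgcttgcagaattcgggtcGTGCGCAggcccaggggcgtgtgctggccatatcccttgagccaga
The core was found 3 times in the window of Mt1 and 4 times in that of Mt2. Among 32851 windows of the same length 25.7% held at least 1 match, 1.97% at least 3 and 0.518% at least 4. A match describes the letters and is not evidence of binding in these livers.

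**Figure D1:**
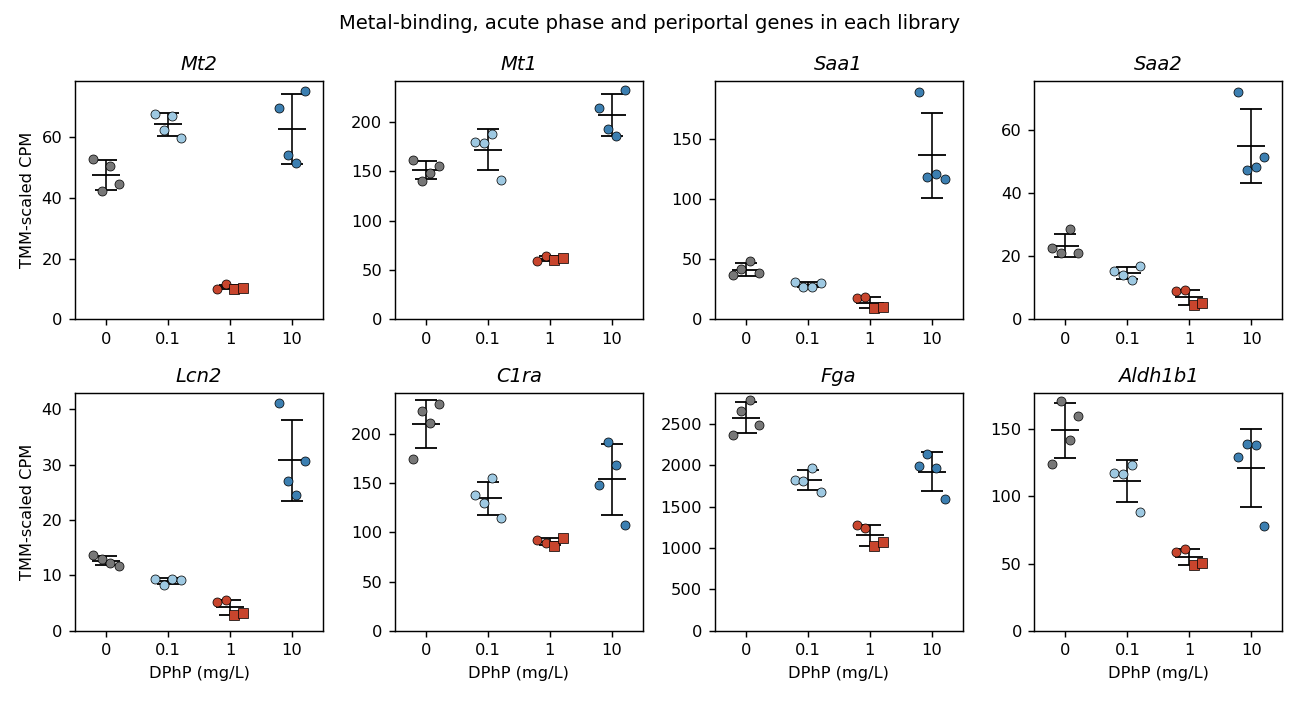
TMM-scaled CPM (linear axes from 0) of 8 genes in the 16 libraries by DPhP concentration; points are libraries, squares mark C2-3 and C2-4, and the bars give mean and SD (n = 4). Mt2 lies between 10.1 and 11.6 CPM in the C2 libraries and at 42.4 CPM or more in the other 12, and Saa1, Saa2 and Lcn2 are lowest in C2 and highest at 10 mg/L.

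Transcripts of serum amyloid A, lipocalin and the fibrinogen alpha chain were lower, within an acute phase list that moved in part. In the list of 32 acute phase genes with enough counts to test, 16 were called lower (10.2% of all genes were) and 0 higher (8.03%), and 14 fell and 4 rose with the first pair (10.8% lower and 9.0% higher over all genes). The summed level of the list was 25430.0 to 32668 CPM in CTRL and 32686, 36294, 13562 and 16021 CPM in C2-1 to C2-4, above every CTRL library in the first pair and below in the others. Their median log2 fold change was -0.51 with all libraries and -0.25 with the first pair. Saa1 and Saa2, serum amyloid A apolipoproteins, were read in CTRL at 36.7, 41.5, 48.8 and 38.6 CPM and 22.7, 20.97, 28.7 and 20.9 CPM. In C2-1 to C2-4 they were at 17.7, 18.4, 9.61 and 9.73 CPM and 8.95, 9.18, 4.64 and 5.10 CPM. All C2 libraries lay below all CTRL libraries for both genes, and C2-3 and C2-4 lay lower than C2-1 and C2-2. Both fell (Saa1, log2 fold change -1.56 ± 0.21 SE, edgeR adjusted p = 0.000116; Saa2, log2 fold change -1.71 ± 0.21 SE, edgeR adjusted p = 4.89e-05), with log2 fold changes of -1.17 and -1.33 in the first pair alone. These neighbouring genes are near-identical copies, so reads may have been divided between them, and their windows are shown with the C/EBP-type motif TTGCNNAA in capitals (either strand).
Saa1, chr7:46742931-46743230 (minus strand): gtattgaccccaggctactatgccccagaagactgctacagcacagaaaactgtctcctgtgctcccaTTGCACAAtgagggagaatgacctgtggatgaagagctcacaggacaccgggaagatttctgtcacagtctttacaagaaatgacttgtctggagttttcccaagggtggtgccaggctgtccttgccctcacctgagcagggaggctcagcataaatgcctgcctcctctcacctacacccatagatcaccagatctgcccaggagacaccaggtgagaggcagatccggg
Saa2, chr7:46751583-46751882 (plus strand): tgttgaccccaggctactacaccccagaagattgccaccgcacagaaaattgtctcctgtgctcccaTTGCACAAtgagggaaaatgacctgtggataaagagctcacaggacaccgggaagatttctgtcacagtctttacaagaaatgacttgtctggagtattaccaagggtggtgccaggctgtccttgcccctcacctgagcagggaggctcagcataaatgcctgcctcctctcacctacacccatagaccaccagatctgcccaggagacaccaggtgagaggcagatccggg
Each window held 1 match, as did 10.8% of all windows at least once.

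Lcn2, the iron-siderophore binding lipocalin, fell from 13.6, 12.9, 12.2 and 11.7 CPM in CTRL to 5.29, 5.56, 2.90 and 3.29 CPM in C2 (log2 fold change -1.52 ± 0.19 SE, edgeR adjusted p = 6.05e-05). Saa3, a serum amyloid made also by macrophages, fell as well (log2 fold change -1.62 ± 0.22 SE, edgeR adjusted p = 0.000121). Between pools Saa1, Saa2 and Lcn2 were lower in C2 than in C1, with log2 differences of -1.04, -1.04 and -1.04, and than in C3, with -3.28, -2.94 and -2.81, and all 6 passed the threshold. The other members that fell were Cd14, Cebpd, Fga, Il1rn, Itih4, Lbp, Lrg1, Saa4, Serpina3n, Socs3, Stat3 and Steap4. Haptoglobin and hemopexin (Hp and Hpx), which bind free hemoglobin and heme, did not pass (edgeR adjusted p = 0.132 and 0.405). Orm1 and Orm2, the orosomucoids, rose with the first pair alone (log2 fold changes 0.65 and 0.66) and stood lower in C2-3 and C2-4, and neither passed over all libraries (edgeR adjusted p = 0.619 and 0.56). Without CTRL-2 10 of the 32 fell, and with only these 8 libraries in the fit 9 did.

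Components of complement and clotting were lower in part. Of 28 measured complement genes 8 fell (12 without C2-2) and 1 rose with all libraries, and 8 fell and 6 rose with the first pair (10.2% of all genes fell and 8.03% rose, and 10.8% and 9.0% with the first pair). All 9 calls of the first count were made again in the second, and the median log2 fold change was -0.28 and 0.04. C1ra, a protease of the C1 complex, was read at 175, 223, 211 and 229.8 CPM in CTRL and 91.9, 89.2, 86.1 and 94.6 CPM in C2, with the C2 libraries within a narrow range below CTRL (log2 fold change -1.21 ± 0.16 SE, edgeR adjusted p = 9.24e-05). The complement gene C3, which encodes the central component (the gene, not the pool of that name), stood at 3566, 3944, 3516 and 5104 CPM in CTRL and 1990.4, 1979.7, 1742 and 1925 CPM in C2 (log2 fold change -1.08 ± 0.17 SE, edgeR adjusted p = 0.000569). Masp1, a protease of the lectin pathway, fell further in C2-1 and C2-2 (14.7 and 11.8 CPM) than in C2-3 and C2-4 (19.6 and 20.7 CPM), from 30.9 to 37.1 CPM in CTRL (log2 fold change -1.02 ± 0.15 SE, edgeR adjusted p = 0.000217). Of 24 clotting genes 8 fell (5 without C2-4 or CTRL-2) and 0 rose with all libraries, and 6 fell and 1 rose with the first pair, while 1 fell in the fit of these 8 libraries alone. Fga, the fibrinogen alpha chain, was at 2364, 2660.3, 2788 and 2483 CPM in CTRL and 1274, 1243, 1018 and 1079 CPM in C2 (log2 fold change -1.16 ± 0.14 SE, edgeR adjusted p = 5.59e-05), and its difference from C1 and C3 was -0.66 and -0.74 (edgeR adjusted p = 0.0177 and 0.0134).

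Many genes that glucocorticoids raise were lower. Of 24 measured members of that list 14 fell and 3 rose (Ehd3, Usp2 and Zbtb16), and the counts were the same with C2-1 and C2-2 alone, with 13 falls and 3 rises in common (all genes, 10.2% lower and 8.03% higher; 6.87% and 3.43% in both). The median log2 fold change was -0.55 with all libraries and -0.52 with the first pair. The list includes Mt1, Mt2, Lcn2, Igfbp1 and Pck1, which other lists hold too. Of the rises, Ehd3 is also in the list of sinusoidal endothelial markers and Usp2 in that of clock genes. Ddit4, an inhibitor of mTORC1, stood at 8.93, 6.66, 8.26 and 9.25 CPM in CTRL and 2.14, 1.60, 3.17 and 2.95 CPM in C2 (log2 fold change -1.79 ± 0.22 SE, edgeR adjusted p = 5.16e-05). Every C2 library was below the lowest of CTRL. Igfbp1, a secreted binding protein of insulin-like growth factors, was read at 233, 198, 203 and 252 CPM in CTRL and 59.8, 58.4, 103 and 96.5 CPM in C2 (log2 fold change -1.48 ± 0.18 SE, edgeR adjusted p = 5.69e-05). C2-1 and C2-2 were the lowest, C2-3 and C2-4 lay between them and CTRL, and the log2 fold change was -1.87 with the first pair alone (edgeR adjusted p = 2.45e-07). Per1, a clock gene, followed the same order (52.7, 39.5, 44.2 and 48.2 CPM in CTRL, 17.03, 14.8, 28.8 and 29.6 CPM in C2; log2 fold change -1.04 ± 0.21 SE, edgeR adjusted p = 0.00326), and Cdkn1a, the cell cycle inhibitor p21, was lower to a like extent in all C2 libraries (log2 fold change -1.57 ± 0.23 SE, edgeR adjusted p = 0.000282). Nr3c1, the glucocorticoid receptor gene, was not called (log2 fold change -0.22 ± 0.11 SE, edgeR adjusted p = 0.172). Ddit4 and Igfbp1 did not pass against C1 (log2 difference -0.05 and 0.05, edgeR adjusted p = 0.943 and 0.919) and were lower than in C3 (-1.36 and -1.25, edgeR adjusted p = 0.0039 and 0.00167).

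The window of Igfbp1 is shown with the core of the insulin response sequence, CAAAANA, in capitals on either strand.
Igfbp1, chr11:7197537-7197836 (plus strand): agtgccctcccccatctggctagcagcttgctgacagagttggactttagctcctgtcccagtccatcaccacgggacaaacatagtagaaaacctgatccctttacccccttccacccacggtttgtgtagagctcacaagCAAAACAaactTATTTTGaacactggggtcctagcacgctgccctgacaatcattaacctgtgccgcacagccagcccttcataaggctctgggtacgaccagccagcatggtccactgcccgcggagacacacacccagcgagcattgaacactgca
It held 2 matches, and 3.14% of all windows held at least 2.

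Periportal transcripts were lower in 13 of 24 measured genes, and some genes of glucose output and glycogen were too. In the periportal list 13 fell and 0 rose with all libraries, and 12 fell and 0 rose with the first pair, 10 of the falls in both, with a median log2 fold change of -0.46 (10.2% of all genes fell and 8.03% rose). Aldh1b1, a mitochondrial aldehyde dehydrogenase, was at 124, 171, 142 and 159.6 CPM in CTRL and 58.3, 60.9, 48.8 and 50.7 CPM in C2 (log2 fold change -1.45 ± 0.17 SE, edgeR adjusted p = 4.73e-05), and it was also below C1 (-1.02) and C3 (-1.14; edgeR adjusted p = 0.00297 and 0.00242). Fbp1, a rate-limiting enzyme of gluconeogenesis, stood at 507, 590.2, 552 and 601 CPM in CTRL and 238, 244, 262 and 292 CPM in C2 (log2 fold change -1.12 ± 0.15 SE, edgeR adjusted p = 0.000116). Of 28 pericentral genes 3 fell (1 without CTRL-2) and 2 rose with all libraries, and 1 fell and 5 rose with the first pair. In the list of 36 glucose and glycogen genes 11 fell (5 without CTRL-4) and 3 rose with all libraries, and 11 fell and 3 rose with the first pair, and the median was -0.17; Pfkfb1 and Ppp1r3c were among those that rose. In the fit of these 8 libraries alone 4 of the 36 fell. Ppp1r3g, which targets protein phosphatase 1 to glycogen, was read at 40.1, 29.1, 31.5 and 57.5 CPM in CTRL and 8.01, 7.27, 20.8 and 17.9 CPM in C2, highest in CTRL-4 and lowest in C2-1 and C2-2 (log2 fold change -1.58 ± 0.32 SE, edgeR adjusted p = 0.00291). Pck1, the gluconeogenic enzyme PEPCK, stood at 2128, 1949, 1929 and 2146 CPM in CTRL and at 923, 787, 1746 and 1559 CPM in C2, lower in the first pair than in the last. Its call (edgeR adjusted p = 0.0332) was lost when any of the CTRL libraries, C2-1 or C2-2 was left out (0.0556 to 0.0768), while the first pair alone gave -1.22 (edgeR adjusted p = 5.46e-05).

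**Figure D2:**
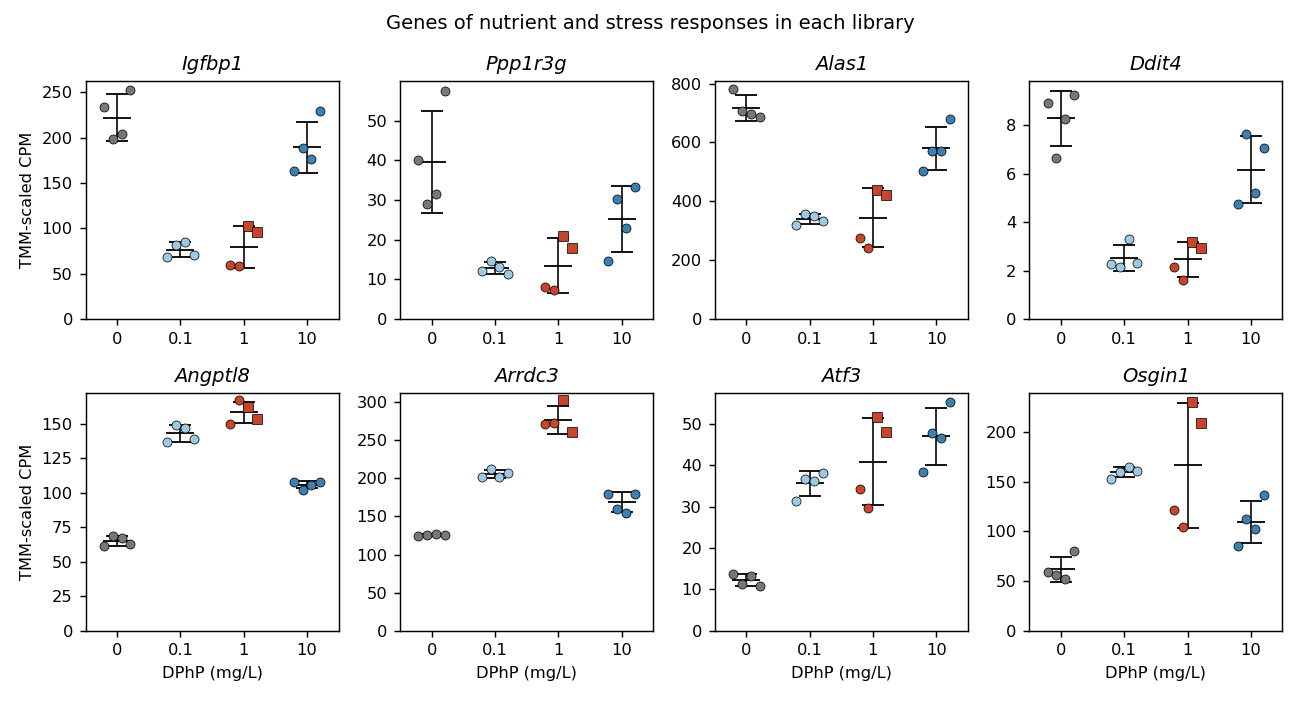
TMM-scaled CPM (linear axes from 0) of 8 genes in the 16 libraries by DPhP concentration; points are libraries, squares mark C2-3 and C2-4, and bars give mean and SD (n = 4). Igfbp1, Ppp1r3g, Alas1 and Ddit4 are lower in all 4 C2 libraries than in CTRL, with C2-3 and C2-4 above C2-1 and C2-2, while Angptl8, Arrdc3, Atf3 and Osgin1 are higher.

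Of 50 measured genes of amino acid catabolism 18 fell (12 without CTRL-2) and 0 rose with all libraries, and 17 fell and 0 rose with the first pair, with 13 falls in both (10.2% of all genes fell, 6.87% in both). Got1, the cytosolic aspartate aminotransferase, was at 197, 179.7, 193 and 196 CPM in CTRL and 90.3, 92.5, 97.7 and 106 CPM in C2 (log2 fold change -0.99 ± 0.11 SE, edgeR adjusted p = 1.68e-05). Got2, its mitochondrial form, and Sds, which deaminates serine, fell too, from 351 ± 64.3 to 176 ± 16.4 CPM and from 193 ± 10.1 to 117 ± 23.1 CPM (mean ± SD, n = 4; edgeR adjusted p = 0.000463 and 0.00174). The C2 libraries of all 3 genes lay under CTRL. Of 28 genes of one-carbon, sulfur amino acid and taurine metabolism 9 fell (6 without C2-4, CTRL-4 or CTRL-2) and 0 rose with all libraries, and 7 fell and 1 rose with the first pair. Csad, an enzyme of taurine synthesis, stood at 75.2, 79.8, 74.7 and 77.6 CPM in CTRL and 45.7, 44.8, 38.4 and 40.7 CPM in C2, again without overlap (log2 fold change -0.86 ± 0.10 SE, edgeR adjusted p = 4.73e-05), and above C1 (log2 difference 0.74, edgeR adjusted p = 0.000461).

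Fat oxidation and fat synthesis both had more lower than higher genes. Of 35 measured genes of β-oxidation 15 fell (10 without C2-4, C2-3, CTRL-4, CTRL-3 or CTRL-2, 23 without C2-2) and 0 rose with all libraries, and 9 fell and 0 rose with the first pair, 8 of the falls in both (10.2% of all genes fell with all libraries, 10.8% with the first pair). The median log2 fold change with the first pair was -0.14 against -0.41 over all libraries. Acox2, a peroxisomal oxidase of branched chains, was even over C2 (52.2, 50.2, 50.2 and 54.7 CPM, against 89.4, 107, 105 and 104 CPM in CTRL; log2 fold change -0.97 ± 0.13 SE, edgeR adjusted p = 9.24e-05). Of 33 targets of PPARα, the receptor that drives the fasting programme of fat burning, 14 fell and 1 rose with all libraries, and 11 fell and 2 rose with the first pair. Cd36, a fatty acid transporter, stood at 42.7, 51.4, 46.6 and 36.4 CPM in CTRL and 23.2, 23.1, 10.98 and 12.4 CPM in C2 (log2 fold change -1.33 ± 0.20 SE, edgeR adjusted p = 0.000289). It was lowest in C2-3 and C2-4 and did not pass the threshold against C1 or C3 (edgeR adjusted p = 0.897 and 0.998). Among 10 ketone body genes 3 fell (5 without C2-2) and 1 rose with all libraries, and 3 fell and 1 rose with the first pair.

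Of 30 genes of fatty acid and triglyceride synthesis 12 fell and 1 rose with all libraries, and 11 fell and 0 rose with the first pair, with 10 falls in both (10.2% of all genes fell, 6.87% in both). Fads2, the delta-6 desaturase of polyunsaturated fat synthesis, was read at 174, 192, 178 and 216 CPM in CTRL and 69.2, 58.9, 73.8 and 76.6 CPM in C2 (log2 fold change -1.45 ± 0.14 SE, edgeR adjusted p = 7.03e-06), and below C1 (-1.10, edgeR adjusted p = 0.000259) and C3 (-0.73, edgeR adjusted p = 0.0155). Gpam, which starts glycerolipid synthesis, and Lpin1, a phosphatidate phosphatase, fell in all C2 libraries, most in the first pair (log2 fold changes -1.16 and -1.40 there, -0.85 ± 0.15 and -1.02 ± 0.18 over all). Of 26 genes of cholesterol synthesis 3 fell (1 without CTRL-4, 6 without C2-2) and 2 rose with all libraries, and 2 fell and 4 rose with the first pair. Insig1, which holds back the SREBP proteins and is itself their target, rose from 537, 593, 569 and 522 CPM to 849, 874, 811 and 726 CPM (log2 fold change 0.55 ± 0.11 SE, edgeR adjusted p = 0.00331). Of 26 apolipoprotein and lipoprotein genes 8 fell (5 without C2-3, CTRL-3 or CTRL-2) and 1 rose with all libraries, and 7 fell and 4 rose with the first pair. Apoa4, an apolipoprotein of lipid export (log2 fold change -1.25 ± 0.20 SE, edgeR adjusted p = 0.000479), and Pltp, the phospholipid transfer protein (log2 fold change -0.90 ± 0.14 SE, edgeR adjusted p = 0.000478), were among the falls. The gene that rose with all libraries was Angptl8, a feeding-induced inhibitor of lipoprotein lipase, which stood at 61.4, 68.98, 67.4 and 62.8 CPM in CTRL and 150.0, 167, 162 and 154 CPM in C2. The lowest C2 library was 150.0 CPM against a highest CTRL library of 69.0 (log2 fold change 1.28 ± 0.09 SE, edgeR adjusted p = 3.47e-07), and it did not pass against C1 (edgeR adjusted p = 0.485).

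Bile, heme and iron genes shifted in part. Of 26 bile acid genes 9 fell (5 without CTRL-2) and 1 rose with all libraries, and 10 fell and 3 rose with the first pair (all genes, 10.2% lower and 8.03% higher, then 10.8% and 9.0%). Abcb4, the phospholipid floppase of bile, and Abcg8, a sterol exporter, were lowest in C2-1 and C2-2 (55.3, 54.1, 90.4 and 98.5 CPM over C2-1 to C2-4 for Abcb4, against 126, 131, 123 and 166 CPM in CTRL; log2 fold change -0.87 ± 0.18 SE, edgeR adjusted p = 0.00344). Cyp8b1, the enzyme that sets the share of cholic acid, fell evenly (log2 fold change -1.04 ± 0.15 SE, edgeR adjusted p = 0.000181). Alas1, whose product catalyses the first step of heme synthesis, was read at 781, 705, 697 and 685 CPM in CTRL and 277, 241, 439 and 420.3 CPM in C2 (log2 fold change -1.06 ± 0.17 SE, edgeR adjusted p = 0.000635). Of 17 heme genes 6 fell (3 without CTRL-2) and 0 rose with all libraries, and 4 fell and 1 rose with the first pair. Of 23 iron genes 8 fell (4 without CTRL-2) and 4 rose with all libraries, and 5 fell and 5 rose with the first pair. Ftl1, ferritin light chain, stood at 1784, 1995, 1939 and 2362 CPM in CTRL and 935, 932, 1187 and 1285 CPM in C2 (log2 fold change -0.90 ± 0.17 SE, edgeR adjusted p = 0.00179). Bmp2 and Bmp6, the endothelial signals that induce hepcidin, both rose (log2 fold changes 0.53 ± 0.11 and 0.68 ± 0.17), while Hamp, the hepcidin gene, was not called (log2 fold change 0.22 ± 0.18 SE, edgeR adjusted p = 0.419).

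Counts for enzymes of drug metabolism differed between all libraries and the first pair. Of 43 cytochromes P450 and their receptors 9 fell (3 without CTRL-2) and 2 rose with all libraries, and 5 fell and 8 rose with the first pair (all genes, 10.2% lower and 8.03% higher, then 10.8% and 9.0%). Among 33 conjugation enzymes 7 fell (0 without C2-4, C2-3, CTRL-3 or CTRL-2, 11 without C2-2) and 0 rose with all libraries, and 0 fell and 4 rose with the first pair. Among 18 carboxylesterases 1 fell and 0 rose with all libraries, and 0 fell and 3 rose with the first pair. Of 40 genes of glutathione and the NRF2 response 12 fell (8 without C2-3) and 1 rose with all libraries, and 11 fell and 6 rose with the first pair. The gene that rose with all libraries was Osgin1, an oxidative stress induced growth inhibitor, at 59.1, 56.1, 52.5 and 80.6 CPM in CTRL and 121, 105, 231 and 209 CPM in C2, highest in C2-3 and C2-4 (log2 fold change 1.42 ± 0.22 SE, edgeR adjusted p = 0.000418; first pair 0.90, edgeR adjusted p = 0.000631). Chac1, which degrades glutathione, fell from 3.04, 3.26, 2.09 and 2.505 CPM to 0.258, 0.236, 0.897 and 0.604 CPM (log2 fold change -2.60 ± 0.33 SE, edgeR adjusted p = 7.06e-05).

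The largest rises among protein-coding genes called in both were mostly of genes at a low level. Ube2d2b, a retrogene for a ubiquitin-conjugating enzyme, went from 0.480, 0.403, 0.343 and 0.485 CPM to 2.47, 2.41, 3.22 and 2.48 CPM (log2 fold change 2.62 ± 0.27 SE, edgeR adjusted p = 1.11e-05), and its reads may include some of the near-identical Ube2d2a. Atf3, a stress-induced transcription factor, stood at 13.8, 11.2, 13.2 and 10.9 CPM in CTRL and 34.4, 29.7, 51.6 and 47.98 CPM in C2, without overlap (log2 fold change 1.73 ± 0.16 SE, edgeR adjusted p = 4.46e-06). Arrdc3, an arrestin-like adaptor in receptor turnover, was even in CTRL at 124, 125, 127 and 125 CPM and higher in every C2 library at 271, 272, 303 and 260.2 CPM (log2 fold change 1.14 ± 0.10 SE, edgeR adjusted p = 2.71e-06). Arrdc3 was also above C1 (log2 difference 0.43) and C3 (0.72; edgeR adjusted p = 0.0319 and 0.00149). Besides Angptl8 the rest were Dpysl2, Pp2d1, Kif28, Hist1h1d, Bambi, Dnah14, Osmr and Sycp3, with CTRL means from 0.696 ± 0.198 CPM (Hist1h1d) to 5.45 ± 0.397 CPM (Sycp3). Dpysl2, which guides axon growth in neurons, was the steepest of these with the first pair (log2 fold change 1.34, and 1.15 ± 0.16 over all libraries). Of 24 immediate early genes 4 fell (1 without CTRL-4, 7 without C2-3) and 2 rose with all libraries, and 10 fell and 2 rose with the first pair; Atf3 and Klf6 rose with all libraries. Of 22 ATF4 targets 3 fell (2 without CTRL-4) and 3 rose (1 without C2-4, C2-3, CTRL-4 or CTRL-2) with all libraries, and 4 fell and 1 rose with the first pair. Over all genes 10.2% fell and 8.03% rose with all libraries, and 10.8% and 9.0% with the first pair. The immediate early rises with all libraries were near that share. Among the falls, Adcy1, an adenylate cyclase (log2 fold change -1.76 ± 0.27 SE, edgeR adjusted p = 0.000414), and Gadd45g, a growth arrest gene (log2 fold change -1.11 ± 0.29 SE, edgeR adjusted p = 0.0154), were lowest in C2-2, and Gadd45g lost its call without CTRL-4 (edgeR adjusted p = 0.0506).

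Markers of sinusoidal endothelial cells rose together. Of 20 measured markers 14 rose and 0 fell, and with C2-1 and C2-2 alone 13 rose and 0 fell, all 13 in common. Over all genes 8.03% rose with all libraries, 9.0% with the first pair and 3.43% in both. Over C2-1 to C2-4 the median marker stood 0.41, 0.42, 0.50 and 0.55 log2 units above the CTRL mean, and CTRL libraries lay within 0.06 of it. Oit3 was read at 6.68, 8.38, 7.14 and 6.18 CPM in CTRL and 12.8, 13.7, 10.1 and 10.3 CPM in C2 (log2 fold change 0.73 ± 0.13 SE, edgeR adjusted p = 0.00146), and Clec4g, the lectin LSECtin, at 25.7, 28.7, 29.4 and 28.5 and 48.7, 47.6, 39.3 and 35.97 CPM (log2 fold change 0.61 ± 0.11 SE, edgeR adjusted p = 0.000887). Both were higher in C2-1 and C2-2 than in C2-3 and C2-4. Ptprb, the endothelial tyrosine phosphatase, was even over C2 (55.3, 57.03, 59.004 and 57.2 CPM, against 37.3, 34.7, 34.7 and 32.6 CPM in CTRL; log2 fold change 0.71 ± 0.10 SE, edgeR adjusted p = 0.000131). Stab2 and Stab1, scavenger receptors of these cells, were higher in the last pair, with 31.2, 30.7, 61.2 and 56.9 CPM of Stab1 in C2 and 29.6, 26.4, 26.6 and 31.1 CPM in CTRL. Stab1 was not called with the first pair (edgeR adjusted p = 0.519). Tek, the angiopoietin receptor TIE2, rose (log2 fold change 0.60 ± 0.16 SE, edgeR adjusted p = 0.0162) but lost its call without CTRL-2 or CTRL-4 (edgeR adjusted p = 0.0535 and 0.0602). Cdh5, Vwf, Eng, Plvap, Pecam1 and Lyve1 did not pass. Against C1 1 of the 20 was higher and against C3 6 were, beside 0.477% and 0.27% of all genes. With each library left out 11 to 14 markers rose.

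**Figure D3:**
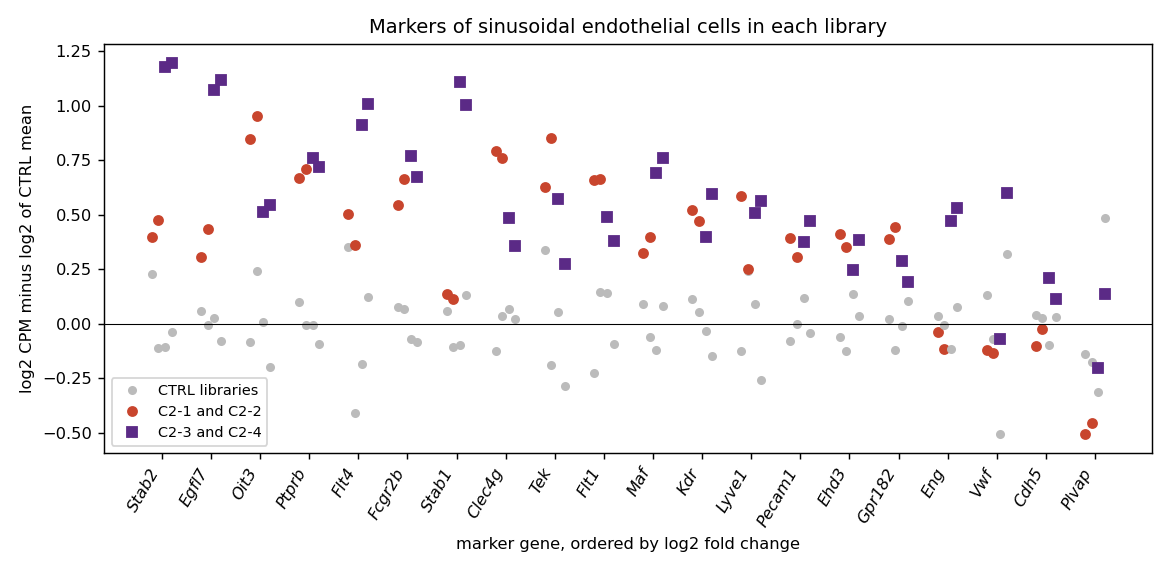
For the 20 markers of liver sinusoidal endothelial cells, log2 CPM in each CTRL library (grey) and each C2 library minus the log2 of the CTRL mean; circles are C2-1 and C2-2, squares C2-3 and C2-4. For 14 markers the rise passed the test, and Plvap, Cdh5, Vwf and Eng lie around 0.

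Genes that set C2 apart from all 3 other pools were few. Of the 17810 genes 97 (0.545%) were called against CTRL, C1 and C3 with no overlap between C2 and any other library. The 6 rises named by rule were Derl3, Dpysl2, Cd93, Cyp26b1, Gimap6 and Bmp2. Cd93, a receptor of endothelial cells, stood at 5.003, 4.54, 4.08 and 3.92 CPM in CTRL and 7.001, 6.66, 7.02 and 7.32 CPM in C2 (log2 fold change 0.67 ± 0.13 SE, edgeR adjusted p = 0.0023), and Gimap6, a GTPase of endothelial and immune cells, at 10.2, 9.55, 9.79 and 11.6 and 16.3, 15.7, 15.3 and 16.04 CPM (log2 fold change 0.62 ± 0.12 SE, edgeR adjusted p = 0.0018). Derl3, a factor that removes proteins from the endoplasmic reticulum, rose in all C2 libraries, most in C2-4 (3.12, 2.12, 2.28 and 2.91 CPM in CTRL, 4.98, 4.38, 7.28 and 9.87 CPM in C2; log2 fold change 1.32 ± 0.24 SE, edgeR adjusted p = 0.00162). Cyp26b1, which degrades retinoic acid, was called over all libraries (log2 fold change 0.53 ± 0.14 SE, edgeR adjusted p = 0.0146) but not with the first pair (edgeR adjusted p = 0.0619) or without CTRL-3 (edgeR adjusted p = 0.0539). The 6 falls were Mt2, Mt1, Saa1, Saa2, Lcn2 and Aldh1b1, described above. In all, edgeR called 366 genes between C2 and C1 (2.06%) and 257 between C2 and C3 (1.44%), and these comparisons share the C2 libraries with that against CTRL. With the first pair the counts were 1755 (9.39%) and 2701 (14.5%).

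Counts for other cell types of the liver were as follows, beside 10.2% of all genes lower and 8.03% higher with all libraries. Of 21 markers of stellate cells, fibroblasts and matrix 0 fell and 3 rose (0 without CTRL-4, CTRL-3 or CTRL-2, 5 without C2-3) with all libraries, and 0 fell and 6 rose with the first pair; Dcn, Timp3 and Col5a1 rose with all libraries. Dcn, the matrix proteoglycan decorin, was at 66.8, 81.8, 78.4 and 66.7 CPM in CTRL and 132, 145, 69.3 and 87.04 CPM in C2, high in the first pair and within or near the CTRL range in the last. Its call (log2 fold change 0.56 ± 0.19 SE, edgeR adjusted p = 0.0439) was lost when any of the CTRL libraries, C2-1 or C2-2 was left out (edgeR adjusted p = 0.0602 to 0.115), as was that of Timp3, a metalloproteinase inhibitor (0.0535 to 0.128). Of 18 Kupffer cell and macrophage markers 5 fell (2 without C2-3 or CTRL-2) and 0 rose with all libraries, and 3 fell and 0 rose with the first pair, and 2 of 18 is near the share over all genes. The scavenger receptor Marco (log2 fold change -1.06 ± 0.23 SE, edgeR adjusted p = 0.00478) and the growth factor receptor Csf1r (log2 fold change -0.38 ± 0.10 SE, edgeR adjusted p = 0.0118) were among the falls. Of 12 hepatocyte markers 5 fell (3 without C2-4, C2-3, CTRL-3 or CTRL-2, 9 without C2-2) and 0 rose with all libraries, and 3 fell and 2 rose with the first pair, with a median log2 fold change of -0.54 and -0.17. Among 8 cholangiocyte markers 0 fell (2 without C2-4) and 1 rose with all libraries, and 2 fell and 1 rose with the first pair; Spp1 rose (log2 fold change 0.49 ± 0.12 SE, edgeR adjusted p = 0.0118). For T and NK cells (17 measured), neutrophils (3), platelets (5) and mesothelial cells (5) 0 were called with all libraries, and unadjusted p was under 0.05 for 4, 0, 0 and 0 of them, with 2, 0, 0 and 0 called by DESeq2. The 1 adipocyte marker measured, Fabp4, rose (log2 fold change 0.80 ± 0.19 SE, edgeR adjusted p = 0.009).

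The largest falls were of genes of the intestinal epithelium, all at low level. Akp3, an intestinal alkaline phosphatase, stood at 4.60, 4.94, 4.49 and 3.03 CPM in CTRL and at 0 counts in each C2 library. Against a floor of 3 counts over the group Akp3 was 165-fold lower, and the lower 95% limit from the observed counts was 133.4-fold. Alpi, a close copy of Akp3, was 83.9-fold lower on the same basis, with a lower limit of 67.7-fold. Muc13, a membrane mucin, had 239 counts in CTRL and 3 in C2 (83.9-fold lower, 95% interval 28.4 to 409.7, counting error only). For Reg1 the counts were 198 and 2 (104-fold lower, 28.5 to 867) and for Rbp2 126 and 3 (44.2-fold, 14.8 to 217). Of 14 measured intestinal markers 9 fell, all called in both, and 0 rose. Over all genes 10.2% fell and 8.03% rose with all libraries, and 6.87% fell in both. The 9 include Apoa4, at 786 ± 112 CPM in CTRL, which the periportal and apolipoprotein lists hold too. The summed level of the 10 markers under 5 CPM in CTRL was 6.14 to 11.9 CPM in CTRL, 26.1 to 35.0 in C1, 1.21 to 2.37 in C2 and 1.93 to 2.15 in C3. It was thus low in C2 and C3 and highest in C1. Against C1 10 of the 14 were lower in C2 (1.58% of all genes were) and against C3 0 were (1.17%), with 1 of them at an unadjusted p under 0.05. Prap1 and S100g, a secreted protein and a calcium-binding protein of the gut, fell with them (log2 fold change -5.69 ± 0.54 SE, edgeR adjusted p = 4.46e-06; log2 fold change -3.69 ± 0.51 SE, edgeR adjusted p = 0.000172). Fabp6 and Reg3b had 0 counts in all 8 libraries. How much of these falls came from gut tissue was not tested.

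Igha, alpha globin and part of the muscle RNAs were lower too. Igha, the heavy chain of immunoglobulin A, was at 7.97, 8.49, 10.1 and 4.89 CPM in CTRL and 1.79, 2.26, 0.475 and 1.48 CPM in C2 (log2 fold change -2.31 ± 0.29 SE, edgeR adjusted p = 6.82e-05), with a difference of -3.48 from C1 (edgeR adjusted p = 1.29e-06) and -0.01 from C3 (edgeR adjusted p = 0.997). Of 12 B and plasma cell markers 3 fell (2 without C2-4, C2-3, C2-1, CTRL-3, CTRL-2 or CTRL-1) and 4 rose with all libraries, and 2 fell and 3 rose with the first pair; Igha, Jchain and Sdc1 fell, and Cd79a, Ighd and Ms4a1 were among those that rose, with all libraries. Hba-a1 and Hba-a2, near-identical alpha globin genes, and Alas2, the erythroid enzyme of heme synthesis, were the 3 of 6 erythroid markers that fell (717, 726, 931 and 781 CPM of Hba-a1 in CTRL, 401, 478, 245 and 323 CPM in C2; log2 fold change -1.12 ± 0.18 SE, edgeR adjusted p = 0.00042). With the first pair 4 of the 6 fell, and 0 rose in either comparison (10.2% and 10.8% of all genes fell). The summed erythroid level was 2118 to 2766 CPM in CTRL and 706 to 1786 CPM in C2. Of 6 muscle markers 3 fell (0 without CTRL-4) and 0 rose with all libraries, and 1 fell and 0 rose with the first pair, and CTRL-4 was the highest library for Acta1, Ckm, Myh1 and Myh2. Myh1, a fast muscle myosin, had 2.26 CPM there, and without it the call was lost (edgeR adjusted p = 0.0688). Acta1, skeletal actin, lost its call without CTRL-4 as well (edgeR adjusted p = 0.108). Of 3 exocrine pancreas markers 1 fell and 0 rose with all libraries, and 1 fell and 1 rose with the first pair. The fall with all libraries was of Amy2a5, from 58 counts to 12, and its call was lost when any of the CTRL libraries, C2-1, C2-2 or C2-3 was left out (edgeR adjusted p = 0.0508 to 0.170).

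Ribosomal and mitochondrial transcripts split the C2 libraries. Of 82 cytosolic ribosomal protein genes 2 fell (7 without C2-2) and 1 rose (9 without C2-3) with all libraries, and 2 fell and 44 rose with the first pair (all genes, 10.2% lower and 8.03% higher, then 10.8% and 9.0%). The median gene was 0.33, 0.50, -0.52 and -0.26 log2 units from the CTRL mean in C2-1 to C2-4, above in the first pair and below in the last. Of the 77 nuclear-encoded subunits of oxidative phosphorylation 11 fell (7 without CTRL-4 or CTRL-2) and 0 rose (5 without C2-3) with all libraries, and 6 fell and 30 rose with the first pair. Of the 13 mRNAs of mitochondrial DNA 0 fell and 0 rose with all libraries. Among them 1 had an unadjusted edgeR p under 0.05 and 1 was called by DESeq2. With the first pair 0 fell and 6 rose. mt-Co3, a cytochrome oxidase subunit, stood at 15126, 13768, 13603 and 14924 CPM in CTRL and 19292, 19967, 12220.0 and 11104 CPM in C2. Of 77 mitochondrial ribosomal protein genes 9 fell (6 without CTRL-4) and 2 rose (0 without CTRL-4, CTRL-3 or CTRL-2) with all libraries, and 8 fell and 18 rose with the first pair, the falls near the share of all genes in both. Of 47 proteasome genes 12 fell (3 without C2-3, CTRL-3 or CTRL-2) and 0 rose with all libraries, and 5 fell and 8 rose with the first pair.

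**Figure D4:**
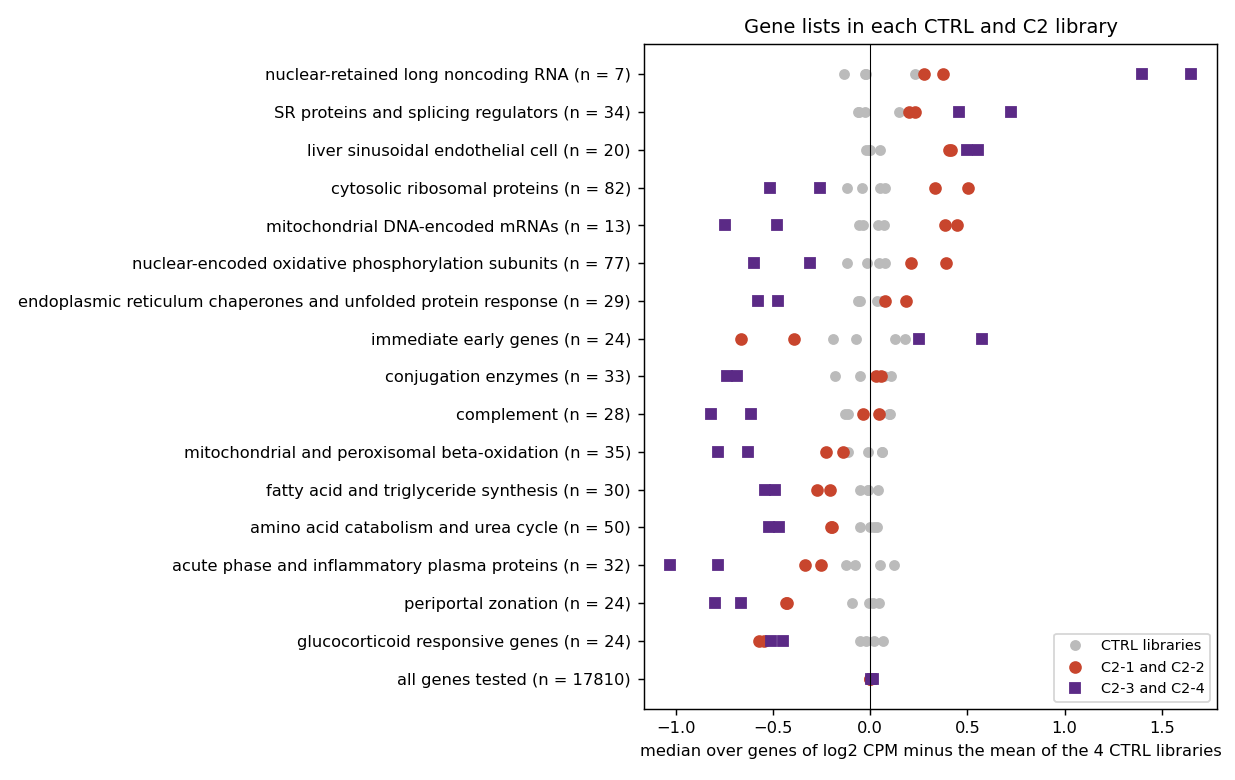
Median over the genes of each list of log2 CPM minus the mean of the 4 CTRL libraries, per library; grey circles are CTRL, red circles C2-1 and C2-2, purple squares C2-3 and C2-4. Glucocorticoid responsive genes and sinusoidal endothelial markers lie on 1 side in all 4 C2 libraries, whereas ribosomal, mitochondrial and immediate early genes lie on opposite sides in the first and the last pair.

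Nuclear-retained RNA was higher in the last pair, and part of the splicing genes in C2 as a whole. That pair was set apart by such RNAs, Malat1, Xist and Kcnq1ot1 among them. The rise of these RNAs there restates that choice and is no separate result. Of 7 nuclear-retained noncoding RNAs 0 fell and 5 rose (3 without C2-4, CTRL-4, CTRL-3 or CTRL-2) with all libraries, and 0 fell and 1 rose with the first pair (8.03% and 9.0% of all genes rose). Malat1, an abundant RNA of nuclear speckles, stood at 2077, 1323, 1429.7 and 1544 CPM in CTRL and 2030.3, 1805, 4431 and 4931 CPM in C2. Of 34 genes of SR proteins and splicing regulators 0 fell and 16 rose (8 without CTRL-3) with all libraries, and 1 fell and 13 rose with the first pair, with 12 of the rises in both. Clk4, a kinase of SR proteins, was at 59.5, 51.4, 51.2 and 47.4 CPM in CTRL and 76.9, 74.9, 100.5 and 87.6 CPM in C2 (log2 fold change 0.70 ± 0.14 SE, edgeR adjusted p = 0.00225). Rbm3, a cold-inducible RNA-binding protein, was instead highest in the first pair (42.6, 42.1, 36.6 and 36.04 CPM in C2, 28.9, 32.02, 29.3 and 25.6 CPM in CTRL; log2 fold change 0.44 ± 0.10 SE, edgeR adjusted p = 0.00572). Sense-intronic genes, which lie in introns of others, were higher in 35.4% of 79 tested over all libraries and in 10.1% with the first pair. The genes with the largest gap between the last and the first pair were Ccnb1ip1, Lars2, Kcnq1ot1, Zbtb45 and Sbf1 (higher) and Serpina3j, Serpina3f, Serpina3i, Serpina3m and S100a1 (lower). Lars2, at 3922, 1481, 2294 and 1525 CPM in CTRL and 3224, 1577, 5741 and 17766 CPM in C2, ranked the C2 libraries as the ribosomal RNA locus did. Serpina3m, a hepatic antiprotease of a family of close copies, was at 2908, 3294, 858 and 1071 CPM in C2 and 2046, 2699, 2507 and 1870.3 CPM in CTRL.

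Transcript length moved with the same pair. In C2-3 and C2-4 the median protein-coding gene of the shortest quintile (201 to 2384 exonic bases) lay 0.366 and 0.255 log2 units below the CTRL mean, and that of the longest quintile (7463 to 123179 bases) 0.190 and 0.184 above. In C2-1 and C2-2 the medians of the 5 quintiles lay between -0.04 and 0.08. The part of transcript length in the calls of single genes was not tested.

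**Figure D5:**
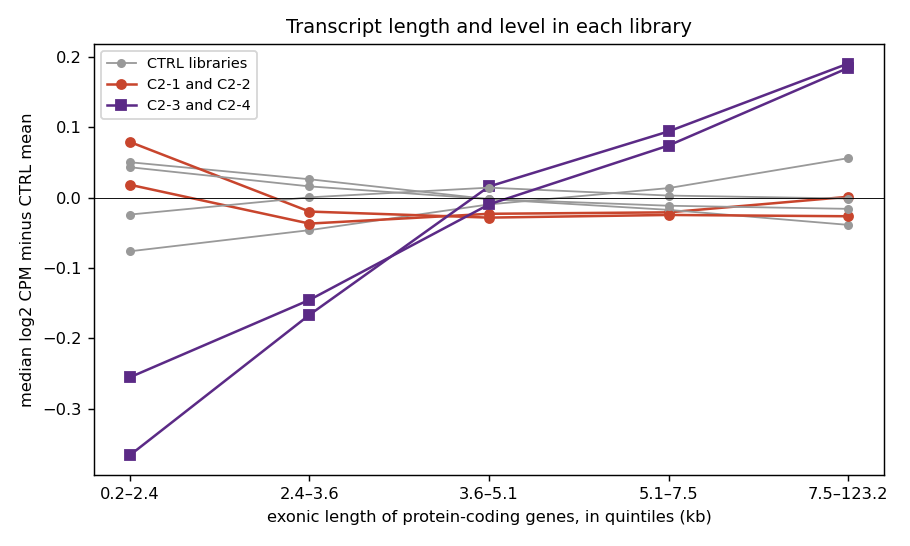
Median log2 CPM minus the CTRL mean (vertical axis) for protein-coding genes in quintiles of exonic length in kilobases (horizontal axis), with 1 line per library; grey is CTRL, red C2-1 and C2-2, purple C2-3 and C2-4. C2-3 and C2-4 climb from about -0.3 in the shortest quintile to about 0.2 in the longest, and the other 6 lines stay near 0.

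The other lists held the following calls, to be read beside 10.2% of all genes lower and 8.03% higher with all libraries and 10.8% and 9.0% with the first pair. Of 58 lysosomal genes 12 fell (7 without CTRL-4, 18 without C2-2) and 0 rose with all libraries, and 8 fell and 6 rose with the first pair. Of 23 heat shock genes 5 fell and 0 rose (2 without C2-3) with all libraries, and 4 fell and 5 rose with the first pair. Of 23 genes of antigen presentation 5 fell (3 without CTRL-4, CTRL-3 or CTRL-2) and 0 rose (2 without C2-1) with all libraries, and 7 fell and 0 rose with the first pair. Of 27 chemokine and interleukin-1 genes 7 fell and 3 rose (2 without C2-4, C2-3, C2-1, CTRL-4, CTRL-2 or CTRL-1) with all libraries, and 7 fell and 4 rose with the first pair. Of 27 genes of the insulin, growth hormone and IGF axis 5 fell and 2 rose (0 without C2-4, CTRL-4, CTRL-3 or CTRL-2) with all libraries, and 4 fell and 0 rose with the first pair. Of 20 clock genes 2 fell and 5 rose (3 without C2-4, C2-3, CTRL-4, CTRL-3 or CTRL-2) with all libraries, and 2 fell and 2 rose with the first pair. Of 24 retinoid genes 4 fell (6 without C2-2) and 1 rose (3 without C2-2) with all libraries, and 4 fell and 2 rose with the first pair. Of 13 thyroid hormone genes 1 fell (4 without C2-2 or C2-1) and 0 rose with all libraries, and 0 fell and 0 rose with the first pair. Of 22 p53 targets 4 fell (6 without C2-3) and 2 rose with all libraries, and 5 fell and 2 rose with the first pair. Of 29 chaperone and unfolded protein genes 2 fell (5 without C2-2) and 1 rose with all libraries, and 2 fell and 4 rose with the first pair. Of 42 histone genes 4 fell (1 without C2-1 or CTRL-4) and 2 rose with all libraries, and 5 fell and 1 rose with the first pair. Of 36 interferon response genes 2 fell (0 without C2-3 or CTRL-4, 5 without C2-2) and 1 rose with all libraries, and 1 fell and 2 rose with the first pair. Of 27 cell cycle genes 0 fell (2 without C2-2) and 1 rose with all libraries, and 1 fell and 4 rose with the first pair. Of 28 female-biased liver genes 6 fell (4 without C2-4, C2-3, CTRL-4, CTRL-3 or CTRL-2, 10 without C2-2) and 1 rose with all libraries, and 4 fell and 1 rose with the first pair. Of 23 male-biased liver genes 3 fell (2 without C2-4, C2-3, CTRL-3 or CTRL-2, 6 without C2-2) and 0 rose with all libraries, and 2 fell and 3 rose with the first pair. Trp53inp1, a p53 target that acts in stress and autophagy, fell in all C2 libraries (169, 139.6, 143 and 136 CPM in CTRL, 61.5, 63.9, 75.5 and 63.8 CPM in C2; log2 fold change -1.15 ± 0.13 SE, edgeR adjusted p = 2.08e-05). Cxcl9 and Cxcl10, chemokines that interferon-γ induces, fell as well (log2 fold change -1.33 ± 0.27 SE, edgeR adjusted p = 0.00284; log2 fold change -1.13 ± 0.20 SE, edgeR adjusted p = 0.000933). Ccnd2, a D-type cyclin, was the cell cycle gene that rose with all libraries (log2 fold change 0.70 ± 0.12 SE, edgeR adjusted p = 0.000811).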

How the data were processed

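Poly(A) RNA of pooled livers was made into stranded libraries (NEBNext Ultra II Directional, RNeasy extraction), per the labels' protocols. The build GRCm38 and the tools STAR 2.5.2b, bcl2fastq 2.19.1.403 and FastQC 0.11.5 are those listed in the submitters' processing notes. The counting program, its strand setting and the annotation release are stated in no source used here. The raw count per gene was used as deposited by the authors, in 1 table of 53372 identifiers, of which 53267 were matched to GENCODE M21 and 0 rows named no gene.

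Genes kept by filterByExpr (17810) were scaled with TMM factors and fitted with edgeR 4.0.16 (R 4.3.3; quasi-likelihood, robust, group as the 1 factor) over all 16 libraries, so that all groups share 1 estimate of the spread (biological coefficient of variation 0.189, 12 residual degrees of freedom). Errors of log2 fold changes are standard errors (SE), and p-values are Benjamini-Hochberg adjusted over all genes tested. A gene was called under an adjusted p of 0.05. Values are TMM-scaled CPM. DESeq2 1.42.0 and limma-voom 3.58.1, other scalings and filters, left-out libraries, a block by library number and the nuclear RNA index as a covariate were alternatives. The edgeR fit was tested on simulated counts, drawn from the CTRL means with 1 common spread. These held no shift between the pairs of C2 libraries, so that the test does not cover it. Counts of any 2 libraries of CTRL or C2 differed beyond sampling noise (chi-square per degree of freedom 10.1 to 710.4), so that no library was counted as a copy. A floor of 3 counts was used for C2 only where its count was 0. Intervals are exact binomial limits on the observed counts and cover counting error only. PCR copies are not told apart.

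The comparison, the gene lists and the markers were chosen with earlier results of these data known. Genes named with values were, by rule, the 12 largest rises and 12 largest falls with C2-1 and C2-2 among protein-coding genes called in both fits without overlap and at 2 CPM or more, up to 4 genes per list called in both (or its 2 most abundant), the 5 genes per direction with the widest gap between the pairs of C2 libraries, the 6 per direction that set C2 apart from all pools, and checks. Hamp, Hp, Hpx, Mtf1, Nr3c1, Orm1, Orm2, Slc30a1, Stab1 and the further list members named were added after their values were seen. Promoter windows came from the RefSeq table of GRCm38.p6. Results for some genes are not reported here.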

Additional observations from a re-analysis of the deposited data

Results flagged for a closer look

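Among the named genes 30 of 442 sets of 4 libraries (6.79%) held a library far from the other 3 of its group by Dixon's criterion, where chance gives about 1 in 20. The library was CTRL-4 in 13 of them. It read Aacs (146 CPM), Acads (117 CPM), Acta1 (3.51 CPM), Atf5 (266 CPM), Hrg (521 CPM), Hsp90ab1 (603 CPM), Mup11 (988 CPM), Naglu (22.3 CPM), Por (325 CPM), Rdh16 (117 CPM), Rxra (292 CPM), Sult3a1 (928 CPM) and Uqcrc1 (166 CPM). CTRL-1 was the one apart in 8, namely Acox2 (89.4 CPM), Ahsg (6142 CPM), Ccnb1ip1 (14.3 CPM), Clk1 (102 CPM), Pfkfb3 (8.33 CPM), Pgd (47.2 CPM), Rbm25 (107 CPM) and Slc39a4 (15.1 CPM). C2 held 9. These were Clca4b (0.0262 CPM), Mt2 (11.6 CPM), Reg1 (0.0525 CPM) and Sis (0.0525 CPM) in C2-2, Prap1 (0.141 CPM) in C2-1, Trp53inp1 (75.5 CPM) and Ube2d2b (3.22 CPM) in C2-3 and Hist1h1d (3.22 CPM) and Msln (1.61 CPM) in C2-4. For Mt2 the 4 C2 libraries span 10.1 to 11.6 CPM and all lie under CTRL, so that the library apart does not touch the direction. For Acta1 the fall was no longer called without CTRL-4 (edgeR adjusted p = 0.108).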

How the results depend on the processing

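Against 3254 genes called, edgeR called 5177 without C2-3, C2-4 and C3-4, 5542 with the index of nuclear RNA as covariate, 1492 with only the C2 and CTRL libraries in the fit, 4886 with only C2-1, C2-2 and CTRL, and 1972 (without CTRL-4) to 4492 (without C2-2) with each library left out. The fits of fewer libraries estimate the spread from fewer of them; the cause was not tested further. Of the genes called at least 2-fold, 903 in all, 211 were left among genes of at least 5 CPM and 307 among protein-coding genes, which test fewer genes, and 505 with only the C2 and CTRL libraries; leaving out each library gave 624 to 1320. Their share that was higher fell from 59.8% to 29.8% with C2-1 and C2-2 only and stood at 70.0% with upper-quartile scaling, which moved the median gene to 0.103. Zbtb45 turned from a rise to -0.026 with the index as a covariate; the cause was not tested. Of 191 named calls 133 held under every alternative run and 154 with each library left out; 51 were lost with only the C2 and CTRL libraries in the fit and 33 without CTRL-4. DESeq2 called 4188 genes and limma-voom 3070.

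The library numbers are shared between groups, and whether the same numbers pair the CTRL and C2 samples was not settled. The deviations of CTRL and C2 libraries of one number correlated at -0.299, 0.323, -0.202 and 0.112. Here the same number was the best match for 2 only. Between C2 and C3 the values were 0.465, 0.154, -0.148 and 0.51, and the same number was the best match for 1 and 4. With this number as a replicate block edgeR called 3426 genes, 900 at least 2-fold. C2-3 and C2-4 hold 15611309 and 16311207 counts, which limits genes of a few counts most.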
